A study of Homo sapiens with 30 samples.

Results

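Helix-deleted FOXP2 was compared with wild-type FOXP2 in U2OS cells that had been treated with CHIR 99021 (CHIR), an inhibitor of glycogen synthase kinase 3. The libraries were chosen by their labels: 5 of cells that overexpressed FOXP2 dhelix with CHIR (dhelix + CHIR) and 5 of cells that overexpressed wild-type FOXP2 with CHIR (WT + CHIR), 10 of the 30 libraries of the series. U2OS is a human osteosarcoma cell line, and dhelix is FOXP2 without residues 264 to 272. Both groups received 5 µM CHIR from 72 h before transfection and 500 ng of plasmid for 48 h. Overexpression, transfection and the drug are thus common to both, and the construct is the designed difference. The mean FOXP2 level differed too, as given below. The other groups used below are dhelix without CHIR, WT without CHIR, CHIR alone and mock-transfected cells, with 5 libraries each. The labels name neither the promoter that drives the plasmids nor the share of cells that took them up, and all groups come from 1 cell line. The series title names β-catenin and its binding sites on FOXP2, and the comparison asks what the loss of the helix does to the transcripts of cells in which CHIR was given to activate Wnt signalling.

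FOXP2 is a transcription factor of the forkhead family. It binds DNA through its forkhead domain, forms dimers with itself and its relatives through a leucine zipper, and is best known for inherited speech and language disorder. In the canonical Wnt pathway a destruction complex of AXIN, APC, casein kinase 1 and glycogen synthase kinase 3 marks β-catenin for degradation, and Wnt ligands bound to Frizzled and LRP receptors stop this complex. When CHIR blocks the kinase, β-catenin accumulates without a ligand, enters the nucleus and acts there with TCF and LEF factors, and their targets include the pathway's own feedback inhibitors.

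The coding bases for the deleted residues are shown first because their loss is the sole designed difference between the groups. The stretch runs over codons 257 to 279 of the FOXP2-201 transcript on the plus strand of chromosome 7 in GENCODE release 29, with the 27 bases of codons 264 to 272 in capitals.
FOXP2 codons 257 to 279: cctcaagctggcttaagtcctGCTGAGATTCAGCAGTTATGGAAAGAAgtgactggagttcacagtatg
The FOXP2-201 protein has 715 residues. The labels do not name the isoform that the residue numbers refer to, and the plasmid may use other codons. Of 14 complete coding transcripts of FOXP2, 4 carried these bases at these codons and 13 carried them in frame at some codon.

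The FOXP2 transcript was abundant in both groups. Its level, in CPM (counts scaled to a common library size), was 13942, 14236, 11903, 13775 and 13549 CPM in dhelix + CHIR libraries, against 14565, 16321, 15444, 16122 and 14041 CPM in WT + CHIR libraries. The groups overlapped, since the lowest WT + CHIR library lay below 1 of the dhelix + CHIR libraries. The means were 13481 ± 917 CPM with dhelix + CHIR and 15299 ± 983 CPM with WT + CHIR (SD, n = 5 each), a ratio of 0.881, with p = 0.016 in a two-sided exact permutation test on log2 CPM whose smallest possible p is 0.0079. In the fit across all genes the difference did not pass (log2 fold change −0.18 ± 0.08, adjusted p = 0.11). FOXP2 took 1.36% of the counts of dhelix + CHIR libraries and 1.55% of those of WT + CHIR libraries. Without CHIR there were 4655, 6359, 5301, 4974 and 5308 CPM in dhelix libraries, against 5906, 7806, 6863, 7769 and 7039 CPM in WT libraries. CHIR-alone libraries held 0.257, 0.249, 0.33, 1.33 and 0.357 CPM and mock libraries 1.12, 0.686, 0.858, 1.25 and 0.577 CPM. Counts of a gene sum plasmid and endogenous transcripts and do not tell helix-deleted from full-length FOXP2, so they check overexpression but not the deletion. The mean FOXP2 level differed along with the construct, and the design does not separate them. A fit with the FOXP2 level as a covariate called 2980 genes higher and 2859 lower, and 7 of the 237 genes named here lost their call in it.

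**Figure D1:**
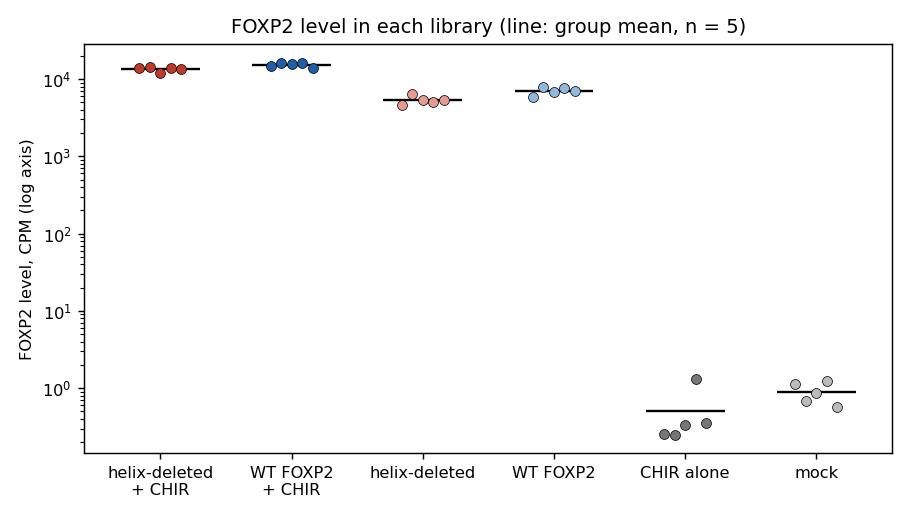
FOXP2 level in CPM (log axis) in each of the 30 libraries by group, with points for libraries and lines for the means of 5. The 5 dhelix + CHIR libraries lie between 11903 and 14236 CPM and the 5 WT + CHIR libraries between 14041 and 16321 CPM, while CHIR-alone and mock libraries stay at or below 1.33 CPM.

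Total counts were 15987830 to 24195383 in the 10 libraries, and the first principal component, with 37.9% of their variance, separated dhelix + CHIR from WT + CHIR. WT + CHIR replicate 4 stood most apart from its group. Markers of other cell types gave summed levels of 42.0 to 47.9 CPM in dhelix + CHIR libraries and 41.2 to 45.8 CPM in WT + CHIR libraries for blood cells (20 markers, 3 higher and 1 lower of 6 tested), with HBB and CD3G at 0 counts. Epithelial markers summed to 578 to 627 CPM in dhelix + CHIR libraries and 549.8 to 616 CPM in WT + CHIR libraries (1 higher and 1 lower of 8 tested). Neuronal markers summed to 151 to 171 CPM in dhelix + CHIR libraries and 133 to 152 CPM in WT + CHIR libraries (4 higher and 1 lower of 8 tested). Endothelial markers summed to 46.3 to 55.3 CPM in dhelix + CHIR libraries and 23.6 to 32.5 CPM in WT + CHIR libraries (2 higher and 0 lower of 6 tested). Of these sums VWF made up 41.2 CPM on average with dhelix + CHIR and 20.03 CPM with WT + CHIR, and TIE1 5.59 CPM with dhelix + CHIR and 5.79 CPM with WT + CHIR. The endothelial cadherin CDH5 averaged 0.511 CPM with dhelix + CHIR and 0.195 CPM with WT + CHIR. Their part in the results was not tested. Of the markers of the line's lineage, RUNX2, COL1A1, SPARC and ALPL were above 10 CPM, but SP7, BGLAP, IBSP and COL1A2 averaged less than 0.2 CPM in either group. In bulk RNA, fewer cells of a kind and less RNA per cell cannot be told apart.

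Between the constructs 5655 of 18485 genes (30.6%) differed at an adjusted p under 0.05 by edgeR's quasi-likelihood test with Benjamini-Hochberg adjustment over all genes. This is the test behind every adjusted p below unless another is named. A total of 3077 genes were higher (16.6%) and 2578 lower (13.9%) in dhelix + CHIR than in WT + CHIR. These shares of all genes are the background for the counts of each gene list below. Most changes were small: the median absolute log2 fold change of the calls was 0.30, 1207 genes (6.53%) passed with a change of at least 1.5-fold, and 283 (1.53%) were at least 2-fold higher and 116 (0.628%) at least 2-fold lower. The 5 libraries of each group did not overlap for 2387 higher genes (12.9% of those tested) and 2138 lower ones (11.6%). The median log2 fold change of all genes was 0.014. Values after ± are standard errors for log2 fold changes and SDs for levels.

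Secreted and epithelial products were among the genes with the largest rises. MUC5AC, a gel-forming mucin of airway and stomach, had 146, 166, 148, 131 and 163 CPM in dhelix + CHIR libraries, against 44.8, 56.7, 52.3, 54.1 and 57.8 CPM in WT + CHIR libraries. MAL, a raft proteolipid of myelin, T cells and epithelia, had 81.1, 90.3, 89.5, 87.1 and 91.5 CPM in dhelix + CHIR libraries, against 27.2, 36.1, 29.5, 31.4 and 30.9 CPM in WT + CHIR libraries. All 5 dhelix + CHIR libraries lay above all 5 WT + CHIR libraries for both genes, with a log2 fold change of 1.51 ± 0.074 for MUC5AC (adjusted p = 5.7e-17) and 1.504 ± 0.07 for MAL (adjusted p = 6.0e-18). MUC5B, a second gel-forming mucin, averaged 3.35 ± 0.543 CPM with dhelix + CHIR and 0.961 ± 0.219 CPM with WT + CHIR. MUCL1, a small mucin first known from breast epithelium, averaged 13.5 ± 3.48 CPM with dhelix + CHIR and 4.17 ± 1.86 CPM with WT + CHIR. MLC1, a membrane protein of astrocytes, rose less (171 ± 9.07 CPM with dhelix + CHIR and 102 ± 3.08 CPM with WT + CHIR, log2 fold change 0.75 ± 0.058, adjusted p = 2.2e-12). In the list of 14 tested mucin and epithelial secretory genes, 7 rose and 0 fell at the threshold, with a median log2 fold change of 0.45 beside 0.014 for all genes. The 7 that rose include MAL and MLC1, which are not mucins, and the list was written with earlier results of these data known. MUC1, MUC4, MUC12, MUC13, MUC20, SPDEF and LCN2 were not called. Reads of mucins with repeats and close relatives may be split between genes.

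Cystatins, secreted inhibitors of cysteine proteases, gave the largest rise among the genes singled out. CST1 had 8.203, 3.58, 3.48, 6.84 and 2.42 CPM in dhelix + CHIR libraries, against 1.46, 1.09, 1.27, 0.78 and 0.855 CPM in WT + CHIR libraries. The groups did not overlap, although the dhelix + CHIR libraries spread between 2.42 and 8.203 CPM, and the log2 fold change was 2.15 ± 0.29 (adjusted p = 8.0e-07). CST5 rose as well, with 3.13 ± 1.15 CPM with dhelix + CHIR and 0.92 ± 0.351 CPM with WT + CHIR (log2 fold change 1.78 ± 0.24, adjusted p = 6.6e-07). CSTA, an intracellular member of the family, fell, with 3.50 ± 0.294 CPM with dhelix + CHIR and 5.07 ± 0.7 CPM with WT + CHIR (log2 fold change -0.53 ± 0.13, adjusted p = 0.0013). Cystatin genes lie in a cluster of similar copies, so reads may be shared among them. Their levels in CHIR-alone cells were 47.1 CPM for CST1 and 21.99 CPM for CST5, above both FOXP2 groups, while those of MUC5AC (0.0494 CPM), MAL (0.0119 CPM) and MUC5B (0 CPM) were below both.

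Other genes at the top were FILIP1, a filamin-binding protein, with 1.86 ± 0.88 CPM with dhelix + CHIR and 0.436 ± 0.15 CPM with WT + CHIR (log2 fold change 2.06 ± 0.29, adjusted p = 1.0e-06). The hair-follicle keratin KRT71 averaged 2.06 ± 0.41 CPM with dhelix + CHIR and 0.604 ± 0.266 CPM with WT + CHIR (log2 fold change 1.77 ± 0.26, adjusted p = 1.8e-06). The β-defensin DEFB115 averaged 2.76 ± 0.797 CPM with dhelix + CHIR and 0.831 ± 0.119 CPM with WT + CHIR (log2 fold change 1.71 ± 0.20, adjusted p = 6.1e-08). LRRC32, which tethers latent TGF-β at the surface of regulatory T cells, had 4.68, 5.39, 4.90, 4.36 and 4.11 CPM in dhelix + CHIR libraries, against 1.18, 1.66, 1.58, 1.95 and 1.198 CPM in WT + CHIR libraries. Its libraries did not overlap between groups (log2 fold change 1.64 ± 0.18, adjusted p = 3.3e-09). The transcripts RP11-13K12.1, AC114730.3 and RP11-435B5.7, which carry clone names, rose by 1.94, 1.79 and 1.64 on the log2 scale. CHIR-alone cells had more of FILIP1 (36.5 CPM) and RP11-13K12.1 (54.5 CPM) than either FOXP2 group. Among all 283 genes at least 2-fold higher with the deletion, the CHIR-alone mean lay above both groups for 129 (45.6%), between them for 26 (9.19%) and below both for 128 (45.2%). The same shares over all genes tested were not counted. The labels give no plasmid amount for CHIR alone, so these cells differ from both groups in more than FOXP2.

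The largest falls were found in genes of several kinds. IRGM, an immunity-related GTPase that acts in autophagy, had 2.42, 2.23, 1.43, 1.98 and 1.35 CPM in dhelix + CHIR libraries, against 6.45, 6.87, 6.80, 7.52 and 6.22 CPM in WT + CHIR libraries. CCR4, a chemokine receptor of T cells, averaged 1.07 ± 0.31 CPM with dhelix + CHIR and 3.62 ± 0.388 CPM with WT + CHIR (log2 fold change -1.74 ± 0.17, adjusted p = 6.8e-10). The IRGM groups lay far apart relative to their spread (log2 fold change -1.83 ± 0.12, adjusted p = 6.3e-14). NEURL3, a ubiquitin ligase, had 10.5, 12.3, 10.2, 10.8 and 10.6 CPM in dhelix + CHIR libraries, against 29.3, 29.2, 29.6, 30.1 and 28.6 CPM in WT + CHIR libraries. Every dhelix + CHIR library was below every WT + CHIR library (log2 fold change -1.43 ± 0.073, adjusted p = 4.6e-17). ARL14, a small GTPase, averaged 2.55 ± 0.33 CPM with dhelix + CHIR and 7.20 ± 0.814 CPM with WT + CHIR (log2 fold change -1.51 ± 0.14, adjusted p = 3.2e-10). ACSBG1, an acyl-CoA synthetase, averaged 1.26 ± 0.304 CPM with dhelix + CHIR and 3.47 ± 0.392 CPM with WT + CHIR (log2 fold change -1.47 ± 0.16, adjusted p = 3.4e-09). The list went on with RP11-206M11.7 (-2.61), RP11-817J15.3 (-2.31), AC104534.2 (-1.70), AC095067.1 (-1.64), AP000619.5 (-1.40) and the antisense transcript KIF25-AS1 (-1.64), all as log2 fold changes. The strand setting of the authors' counting is not given, so antisense and overlapping transcripts are uncertain. Of the 116 genes at least 2-fold lower with the deletion, the CHIR-alone mean lay below both groups for 99 (85.3%), between them for 11 (9.48%) and above both for 6 (5.17%). Without the same shares over all genes tested, these are not read as particular to the lower genes.

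**Figure D2:**
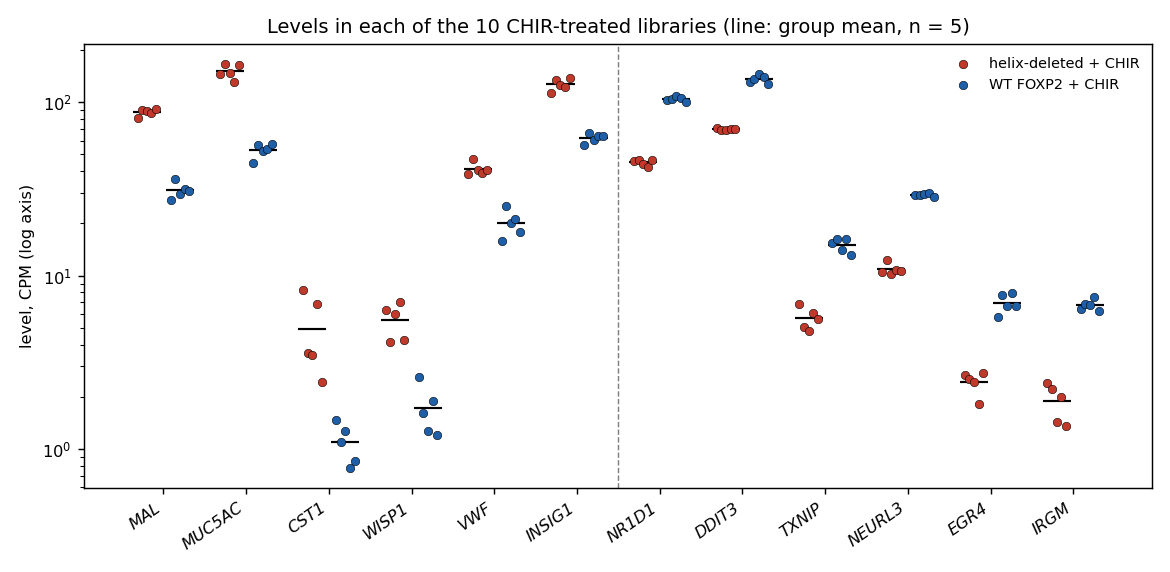
Levels in CPM (log axis) of 6 genes that rose (left of the dashed line) and 6 that fell with the deletion in each of the 10 CHIR-treated libraries, dhelix + CHIR left of WT + CHIR for each gene, with lines for the means of 5. For all 12 genes the libraries of the groups do not overlap.

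Genes of the Wnt pathway were the next question, since CHIR acts there. Among feedback genes and direct targets 13 of 33 tested genes rose and 6 fell at the threshold, with a median log2 fold change of 0.18. AXIN2, the feedback scaffold of the destruction complex and a standard readout of the pathway, had 75.6, 60.8, 58.0, 67.6 and 50.2 CPM in dhelix + CHIR libraries, against 42.5, 58.0, 46.7, 48.03 and 50.8 CPM in WT + CHIR libraries. Its groups overlapped, and the log2 fold change was 0.35 ± 0.085 (adjusted p = 0.0018), which did not pass in a fit of the compared groups alone (adjusted p = 0.063). CHIR-alone cells had 145 CPM of AXIN2 and mock cells 21.0 CPM. Some other inhibitors of the pathway rose too, but ZNRF3 (log2 fold change 0.076, adjusted p = 0.23) and NKD2 (0.18, adjusted p = 0.42) were not called. RNF43, a ubiquitin ligase that removes Frizzled receptors, averaged 26.0 ± 7.39 CPM with dhelix + CHIR and 14.3 ± 2.78 CPM with WT + CHIR (log2 fold change 0.87 ± 0.14, adjusted p = 1.6e-05). NKD1, which acts on Dishevelled, averaged 43.0 ± 7.21 CPM with dhelix + CHIR and 29.8 ± 3.98 CPM with WT + CHIR (log2 fold change 0.53 ± 0.12, adjusted p = 0.00066). NOTUM, which removes the lipid of Wnt ligands, averaged 7.74 ± 0.632 CPM with dhelix + CHIR and 5.42 ± 0.443 CPM with WT + CHIR (log2 fold change 0.52 ± 0.11, adjusted p = 0.00053). Libraries of the groups overlapped for RNF43 and NKD1 and did not for NOTUM.

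Larger rises were seen in other members. TNFRSF19, a TNF receptor family member, had 6.29, 3.69, 4.03, 6.62 and 4.28 CPM in dhelix + CHIR libraries, against 2.19, 2.51, 1.69, 1.505 and 2.68 CPM in WT + CHIR libraries. The guidance receptor EPHB3 had 16.1, 16.8, 14.5, 16.04 and 16.6 CPM in dhelix + CHIR libraries, against 6.98, 8.44, 9.23, 7.36 and 7.36 CPM in WT + CHIR libraries. Neither gene had overlapping groups, and the log2 fold changes were 1.24 ± 0.17 (adjusted p = 3.7e-07) and 1.03 ± 0.08 (adjusted p = 3.0e-12). WISP1, a matricellular CCN protein named for its induction by Wnt, had 6.34, 4.16, 6.02, 7.002 and 4.28 CPM in dhelix + CHIR libraries, against 2.598, 1.61, 1.27, 1.89 and 1.198 CPM in WT + CHIR libraries. It stands in the list of matricellular genes and rose 3.17-fold without overlap between groups (log2 fold change 1.66 ± 0.15, adjusted p = 8.4e-11). The growth-promoting targets went the other way: MYC averaged 127 ± 10.04 CPM with dhelix + CHIR and 149 ± 4.18 CPM with WT + CHIR (log2 fold change -0.23 ± 0.046, adjusted p = 0.00021). CCND1, cyclin D1, averaged 239 ± 7.34 CPM with dhelix + CHIR and 266 ± 10.7 CPM with WT + CHIR (log2 fold change -0.15 ± 0.029, adjusted p = 7.4e-05).

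Of the nuclear effectors, the transcripts of CTNNB1, LEF1 and TCF7 differed little. CTNNB1, which encodes β-catenin, had 269, 257, 256, 266 and 252 CPM in dhelix + CHIR libraries, against 278, 263, 258, 268 and 259.8 CPM in WT + CHIR libraries. LEF1 averaged 86.3 ± 8.03 CPM with dhelix + CHIR and 81.7 ± 4.97 CPM with WT + CHIR. TCF7, near the lower limit of detection, averaged 0.404 ± 0.184 CPM with dhelix + CHIR and 0.348 ± 0.189 CPM with WT + CHIR. None of these passed the test, with log2 fold changes of -0.03 ± 0.028 for CTNNB1 (adjusted p = 0.46), 0.08 ± 0.054 for LEF1 (adjusted p = 0.28) and 0.17 ± 0.35 for TCF7 (adjusted p = 0.76). Without dhelix + CHIR replicate 5 the TCF7 value was -0.088. TCF7L2, another TCF factor, was lower with the deletion (log2 fold change -0.21, adjusted p = 0.0035). Transcript levels say nothing of β-catenin protein, on which CHIR acts. In the list of β-catenin, TCF/LEF factors and cofactors 3 of 27 tested genes rose (1 without dhelix + CHIR replicate 1) and 6 fell. This share of calls (33.3%) is near the 30.6% of all genes. Among them were the Groucho co-repressors TLE2 (log2 fold change 0.37 ± 0.10, adjusted p = 0.0037) and TLE3 (log2 fold change -0.25 ± 0.052, adjusted p = 0.00024), in opposite directions. EP300, a histone acetyltransferase that β-catenin recruits, was lower (log2 fold change -0.27 ± 0.033, adjusted p = 7.1e-08). In the destruction complex and Wnt kinases 2 of 23 tested genes rose and 5 fell (3 fell without dhelix + CHIR replicate 4). That share of calls (30.4%) is also near that of all genes. CSNK1D, a casein kinase 1 isoform, averaged 204 ± 3.68 CPM with dhelix + CHIR and 232 ± 4.91 CPM with WT + CHIR (log2 fold change -0.18 ± 0.044, adjusted p = 0.0014).

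Among Frizzled, LRP and other receptors 10 of 19 tested genes rose and 0 fell, with a median log2 fold change of 0.22. FZD8, a Frizzled receptor, had 18.0, 19.2, 18.8, 17.4 and 19.97 CPM in dhelix + CHIR libraries, against 11.73, 12.8, 12.02, 13.3 and 11.75 CPM in WT + CHIR libraries. The groups did not overlap (log2 fold change 0.60 ± 0.081, adjusted p = 3.7e-07). The R-spondin receptor LGR4 averaged 3.30 ± 0.647 CPM with dhelix + CHIR and 1.95 ± 0.171 CPM with WT + CHIR (log2 fold change 0.74 ± 0.15, adjusted p = 0.00019). Its relative LGR6 averaged 3.40 ± 0.63 CPM with dhelix + CHIR and 1.97 ± 0.431 CPM with WT + CHIR (log2 fold change 0.80 ± 0.18, adjusted p = 0.00078). ROR1, a receptor for non-canonical ligands, averaged 7.51 ± 1.03 CPM with dhelix + CHIR and 4.75 ± 0.233 CPM with WT + CHIR (log2 fold change 0.66 ± 0.10, adjusted p = 2.2e-06). None of these 3 genes had overlapping groups. FZD4 (0.45), FZD7 (0.28) and the co-receptor LRP5 (0.41) rose by less on the log2 scale. Among ligands and secreted regulators 13 of 24 tested genes rose and 0 fell, with a median of 0.40, and these counts include NOTUM, also listed above. WNT11, a non-canonical ligand, had 4.53, 4.46, 3.72, 3.91 and 3.71 CPM in dhelix + CHIR libraries, against 1.18, 2.70, 1.90, 1.17 and 1.82 CPM in WT + CHIR libraries. WNT7B had 11.3, 13.8, 14.3, 12.02 and 12.7 CPM in dhelix + CHIR libraries, against 7.31, 5.83, 7.49, 7.41 and 7.24 CPM in WT + CHIR libraries. Both were higher in every dhelix + CHIR library, with log2 fold changes of 1.22 ± 0.23 (adjusted p = 0.00013) and 0.86 ± 0.11 (adjusted p = 8.0e-08). WNT6 (0.78), WNT7A (0.79), WNT5B (0.65) and WNT5A (0.44) rose as well. In mock cells ROR1 had 116 CPM, LGR4 26.8 CPM and WNT11 15.8 CPM, more than in either group here.

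Of 12 tested genes of the FOXP family and its partners 2 rose and 1 fell (25%), near the 30.6% of all genes, with NFIB, a nuclear factor I protein, at 19.1 ± 1.91 CPM with dhelix + CHIR and 15.7 ± 0.775 CPM with WT + CHIR (log2 fold change 0.28 ± 0.073, adjusted p = 0.0026). CHD4, the ATPase of a repressor complex, was lower by little (1115 ± 24.6 CPM with dhelix + CHIR and 1185 ± 2.54 CPM with WT + CHIR, log2 fold change -0.088 ± 0.022, adjusted p = 0.0025). That call was lost with no filter on low counts (adjusted p = 0.071). NFIA, a relative of NFIB, was higher (log2 fold change 0.28 ± 0.086, adjusted p = 0.011). Of the other forkhead factors 2 of 21 rose and 3 fell (23.8%), below the share of all genes, against 4 and 3 in a fit of the compared groups alone. With any 1 library left out other than dhelix + CHIR replicate 1 or 4 or WT + CHIR replicate 2, only 1 rose. They included the repressor FOXN3 (log2 fold change 0.37 ± 0.062, adjusted p = 1.3e-05) and FOXC1, a regulator of eye and vessel development (log2 fold change -0.29 ± 0.081, adjusted p = 0.0054). FOXA2, a pioneer factor of endoderm (log2 fold change -0.37 ± 0.12, adjusted p = 0.014), and FOXJ2 (log2 fold change -0.30 ± 0.031, adjusted p = 1.5e-09) were lower.

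Genes that other studies described as FOXP2 targets moved more often upward: 11 of 25 tested genes rose and 2 fell, with a median log2 fold change of 0.20. SYK, a tyrosine kinase of immune receptors, had 17.01, 16.8, 17.4, 17.4 and 13.1 CPM in dhelix + CHIR libraries, against 5.32, 7.87, 6.27, 6.97 and 6.73 CPM in WT + CHIR libraries. The groups did not overlap (log2 fold change 1.31 ± 0.10, adjusted p = 1.8e-12). SOX4, a transcription factor of progenitor cells, averaged 52.2 ± 9.16 CPM with dhelix + CHIR and 37.4 ± 5.23 CPM with WT + CHIR with overlap (log2 fold change 0.48 ± 0.091, adjusted p = 0.00010). LAMA4, a laminin chain, averaged 2.94 ± 0.35 CPM with dhelix + CHIR and 1.88 ± 0.283 CPM with WT + CHIR (log2 fold change 0.64 ± 0.11, adjusted p = 4.5e-05). DISC1, a scaffold protein of neuronal development, rose too (log2 fold change 0.45 ± 0.12, adjusted p = 0.0038). Among ion channel and synaptic genes described around FOXP2 11 of 27 tested genes rose and 1 fell (0 fell without dhelix + CHIR replicate 4), with the calcium channel subunit CACNA1C (log2 fold change 0.57 ± 0.11, adjusted p = 0.00018) and the NMDA receptor subunit GRIN2B (log2 fold change 0.47 ± 0.11, adjusted p = 0.00071) among those that rose. The calcium channel subunit CACNB2 was another (log2 fold change 0.55 ± 0.13, adjusted p = 0.0011).

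Immediate early genes, which growth factor signalling switches on within minutes, fell more often than they rose with the deletion. Of the AP-1 subunits and other immediate early genes 2 of 28 tested rose and 15 fell, with a median log2 fold change of -0.19, and of the MAPK feedback genes 0 of 22 rose and 10 fell, with a median of -0.14. The AP-1 list's rises were BTG2 (log2 fold change 0.17, adjusted p = 0.0045) and ARC (0.27, adjusted p = 0.038). Its 11 members not called included FOS (0.05, adjusted p = 0.63), FOSB (-0.14, adjusted p = 0.20) and NR4A1 (-0.016, adjusted p = 0.90). Of the AP-1 list only 1 gene rose without dhelix + CHIR replicate 2 or 5 or without WT + CHIR replicate 1, 4 or 5. EGR4, a zinc-finger factor, had 2.67, 2.52, 2.42, 1.82 and 2.76 CPM in dhelix + CHIR libraries, against 5.804, 7.68, 6.70, 7.91 and 6.67 CPM in WT + CHIR libraries. IER2 had 122, 128, 116, 116 and 122 CPM in dhelix + CHIR libraries, against 166, 188, 182, 187 and 177 CPM in WT + CHIR libraries. Both were lower in all dhelix + CHIR libraries, with log2 fold changes of -1.503 ± 0.15 (adjusted p = 3.5e-09) and -0.58 ± 0.048 (adjusted p = 1.2e-11). The AP-1 subunit FOSL1 averaged 181 ± 8.74 CPM with dhelix + CHIR and 254 ± 10.2 CPM with WT + CHIR (log2 fold change -0.49 ± 0.06, adjusted p = 7.8e-08). JUNB, whose groups overlapped, averaged 96.0 ± 7.38 CPM with dhelix + CHIR and 117 ± 10.2 CPM with WT + CHIR (log2 fold change -0.29 ± 0.067, adjusted p = 0.0011). ATF3, which is both an AP-1 partner and a stress factor, also fell (log2 fold change -0.53 ± 0.039, adjusted p = 5.1e-13). The zinc-finger factor EGR2 (-0.68), the orphan receptor NR4A3 (-0.54) and the guidance receptor EPHA4 (-0.78), the MAPK list's member with the largest log2 fall, did likewise. Of that list the growth factor AREG (-0.42), the Sprouty-related SPRED3 (-0.31) and the phosphatase DUSP5 (-0.21) also fell on the log2 scale. CHIR-alone cells had 73.2 CPM of FOSL1 and 0 CPM of EGR4, below both FOXP2 groups.

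Motifs of the factors behind these pathways were looked for in promoters. Promoters here are RefSeq windows of 300 bases around the annotated start (build GRCh38.p14), found for 12547 of 18485 genes (67.9%), and a match is only a run of letters on either strand. TGANTCA, the AP-1 motif, was found in 28 of 214 promoters (13.1%) of genes at least 1.5-fold lower, in 42 of 488 (8.61%) of genes at least 1.5-fold higher and in 665 of all 12547 (5.30%). CTTTGAT, a TCF/LEF motif, was found in 1 of 214 (0.467%) of the lower, 12 of 488 (2.46%) of the higher and 187 (1.49%) of all. TGTTTAC, a forkhead motif, was found in 2.34% of the lower, 2.46% of the higher and 2.23% of all promoters. For TGATGNAA, an ATF4 response element, the shares in the same order were 3.74%, 2.87% and 1.93%, for TTATGNAA, the D-box of clock outputs, 4.21%, 1.64% and 1.67%, and for the E-box CACGTG 11.2%, 5.12% and 9.72%. A match overlapped another of these motifs in 13 of the 665 promoters with the AP-1 motif and in 5 of the 187 with the TCF/LEF motif. These shares are descriptions without a test.

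The windows below show the AP-1 match, in capitals, with up to 10 bases on either side in the 4 lower genes with the smallest p among those with a match, read 5′ to 3′ on the strand of the gene.
DDIT3 chr12:57520739-57520764, minus strand: gcgcgcgcaTGACTCAcccacctcct
SERPINB2 chr18:63887593-63887619, plus strand: agtaaaatgtTGAATCActcaaaggac
IL23A chr12:56338797-56338823, plus strand: ccacctgctgTGAGTCAcctgctggta
ARRDC4 chr15:97960574-97960600, plus strand: gccaatgaaaTGACTCAgtgaccatct
The next windows show the TCF/LEF match or its reverse complement in the 4 higher genes chosen in the same way.
KSR2 chr12:117968978-117969004, minus strand: cccccccgccCTTTGATtgacaggcaa
ZNF117 chr7:64991261-64991286, minus strand: ggaaaggtcATCAAAGaaataactgc
ELMO1 chr7:36986212-36986238, minus strand: tggaggcgccCTTTGATtggctgatct
GPR161 chr1:168137884-168137910, minus strand: taatgtatttATCAAAGcagatggatt
SERPINB2, a plasminogen activator inhibitor, averaged 19.6 ± 1.55 CPM with dhelix + CHIR and 35.9 ± 2.84 CPM with WT + CHIR (log2 fold change -0.87 ± 0.067, adjusted p = 9.0e-12). ARRDC4, an arrestin-like protein, averaged 21.4 ± 1.91 CPM with dhelix + CHIR and 34.0 ± 1.91 CPM with WT + CHIR (log2 fold change -0.66 ± 0.079, adjusted p = 3.2e-08). The values of DDIT3 and IL23A are given with their groups below. KSR2, a scaffold of the MAPK pathway, averaged 17.2 ± 0.502 CPM with dhelix + CHIR and 10.5 ± 0.426 CPM with WT + CHIR (log2 fold change 0.71 ± 0.066, adjusted p = 1.4e-10). ZNF117, a zinc-finger protein (log2 fold change 0.78 ± 0.13, adjusted p = 8.4e-06), ELMO1, a regulator of Rac (log2 fold change 0.70 ± 0.11, adjusted p = 1.0e-05), and GPR161, a ciliary receptor that restrains Hedgehog signalling (log2 fold change 0.59 ± 0.11, adjusted p = 5.8e-05), rose similarly.

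Of 38 tested ATF4 targets and tRNA synthetases 0 rose (1 without dhelix + CHIR replicate 5) and 26 fell, with a median log2 fold change of -0.20. DDIT3 (CHOP), the transcription factor at the end of the integrated stress response, had 70.6, 69.4, 69.4, 69.6 and 69.7 CPM in dhelix + CHIR libraries, against 130.3, 135, 145, 139 and 128 CPM in WT + CHIR libraries. PPP1R15A (GADD34), which ends the response by recruiting the eIF2α phosphatase, had 179, 180.5, 167, 164 and 193 CPM in dhelix + CHIR libraries, against 279, 320.0, 311, 311 and 291 CPM in WT + CHIR libraries. Both sets of libraries were far apart, with log2 fold changes of -0.96 ± 0.045 (adjusted p = 6.0e-18) and -0.77 ± 0.049 (adjusted p = 1.1e-14). The hormone FGF21 averaged 3.19 ± 0.314 CPM with dhelix + CHIR and 6.80 ± 0.476 CPM with WT + CHIR (log2 fold change -1.08 ± 0.12, adjusted p = 6.0e-09). SLC3A2, the heavy chain of amino acid transporters, averaged 514 ± 17.8 CPM with dhelix + CHIR and 771 ± 36.6 CPM with WT + CHIR (log2 fold change -0.58 ± 0.038, adjusted p = 2.9e-14). The cystine transporter SLC7A11 (-0.49) and ATF4 itself (-0.20) fell by less on the log2 scale. TXNIP, a thioredoxin-binding arrestin that glucose and FOXO factors control, had 6.84, 5.04, 4.78, 6.07 and 5.63 CPM in dhelix + CHIR libraries, against 15.34, 16.3, 14.0, 16.2 and 13.1 CPM in WT + CHIR libraries. It fell to 5.67 CPM with dhelix + CHIR, against 15.0 CPM with WT + CHIR (log2 fold change -1.39 ± 0.09, adjusted p = 1.8e-14). The FOXO target list was mixed, with 5 higher and 7 lower of 16 tested, and its member SESN3, a sestrin, rose (log2 fold change 0.69 ± 0.12, adjusted p = 2.2e-05). Of this list 4 were lower without dhelix + CHIR replicate 3 or WT + CHIR replicate 3, and 3 higher without dhelix + CHIR replicate 4 or WT + CHIR replicate 1. KLF15, a metabolic transcription factor, fell with TXNIP (7.12 ± 0.562 CPM with dhelix + CHIR and 12.03 ± 0.792 CPM with WT + CHIR, log2 fold change -0.75 ± 0.071, adjusted p = 2.5e-10). So did the coactivator CITED2 (log2 fold change -0.54 ± 0.072, adjusted p = 2.8e-07).

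In the list of endoplasmic reticulum chaperones and other unfolded protein response genes 17 of 26 tested genes rose and 1 fell (median log2 fold change 0.14). HSPA5 (BiP), the main chaperone of the compartment, averaged 1061 ± 32.7 CPM with dhelix + CHIR and 966 ± 44.5 CPM with WT + CHIR (log2 fold change 0.13 ± 0.031, adjusted p = 0.00075). Calreticulin, CALR, averaged 879 ± 36.1 CPM with dhelix + CHIR and 773 ± 12.7 CPM with WT + CHIR (log2 fold change 0.19 ± 0.031, adjusted p = 1.1e-05). The secreted factor CRELD2 (log2 fold change 0.30 ± 0.054, adjusted p = 4.3e-05) and the membrane-bound transcription factor CREB3L2 (log2 fold change 0.42 ± 0.04, adjusted p = 3.2e-10) rose. DNAJC3, an inhibitor of the eIF2α kinases (log2 fold change 0.33 ± 0.048, adjusted p = 1.1e-06), and the kinase EIF2AK3 (PERK) itself (log2 fold change 0.25 ± 0.059, adjusted p = 0.00097) rose as well.

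Of 20 tested heat shock genes, cytosolic and mitochondrial, 3 rose and 3 fell (30%), near the 30.6% of all genes, and 5 rose in a fit of the compared groups alone. HSPA6 averaged 6.59 ± 0.466 CPM with dhelix + CHIR and 4.66 ± 0.731 CPM with WT + CHIR (log2 fold change 0.51 ± 0.12, adjusted p = 0.0010). The co-chaperone DNAJB1 averaged 424 ± 11.4 CPM with dhelix + CHIR and 334 ± 14.5 CPM with WT + CHIR (log2 fold change 0.34 ± 0.034, adjusted p = 8.7e-10). The co-chaperone BAG3 fell, with 96.3 ± 3.31 CPM with dhelix + CHIR and 113 ± 5.55 CPM with WT + CHIR (log2 fold change -0.22 ± 0.053, adjusted p = 0.0011). The small heat shock protein HSPB8 was also lower (69.9 ± 3.36 CPM with dhelix + CHIR and 92.5 ± 3.68 CPM with WT + CHIR, log2 fold change -0.41 ± 0.049, adjusted p = 4.6e-08).

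NF-κB feedback genes and cytokines moved in both directions. Of 22 tested NF-κB subunits and feedback genes 7 rose (3 with no filter on low counts) and 13 fell. TNFAIP3 (A20), which ends NF-κB signalling, had 78.4, 77.9, 78.4, 81.4 and 84.6 CPM in dhelix + CHIR libraries, against 121, 123, 117, 119 and 121 CPM in WT + CHIR libraries. The groups were separate (log2 fold change -0.58 ± 0.053, adjusted p = 8.4e-11). The subunit NFKB2 (log2 fold change -0.22 ± 0.045, adjusted p = 0.00019) and the adhesion molecule ICAM1 (log2 fold change -0.56 ± 0.16, adjusted p = 0.0063) also fell. The anti-apoptotic gene BIRC3 rose, with 49.2 ± 2.74 CPM with dhelix + CHIR and 27.8 ± 3.78 CPM with WT + CHIR (log2 fold change 0.81 ± 0.079, adjusted p = 5.5e-10). TRAF1, its partner at TNF receptors, averaged 83.2 ± 4.67 CPM with dhelix + CHIR and 59.5 ± 1.59 CPM with WT + CHIR (log2 fold change 0.48 ± 0.052, adjusted p = 3.5e-09). Of 13 tested CXC and CC chemokines 8 rose and 1 fell (2 without WT + CHIR replicate 5). CXCL5, which attracts neutrophils, averaged 2.02 ± 0.591 CPM with dhelix + CHIR and 0.666 ± 0.246 CPM with WT + CHIR (log2 fold change 1.56 ± 0.27, adjusted p = 2.9e-05). CCL2, which attracts monocytes, averaged 6.005 ± 0.573 CPM with dhelix + CHIR and 3.56 ± 0.746 CPM with WT + CHIR (log2 fold change 0.74 ± 0.11, adjusted p = 1.4e-06). The call in the other direction was CXCL3, with 18.5 ± 1.16 CPM with dhelix + CHIR and 25.8 ± 1.81 CPM with WT + CHIR (log2 fold change -0.48 ± 0.071, adjusted p = 1.8e-06). IL8 had 78.4, 87.6, 85.6, 86.5 and 88.8 CPM in dhelix + CHIR libraries, against 78.8, 73.8, 74.0, 74.9 and 66.0 CPM in WT + CHIR libraries. Its groups overlapped slightly (log2 fold change 0.21 ± 0.065, adjusted p = 0.0099).

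Interleukins and colony-stimulating factors were also split, with 6 of 22 higher and 4 lower (5 and 6 in a fit of the compared groups alone). CSF2 (GM-CSF) had 2.42, 2.58, 2.92, 3.25 and 2.48 CPM in dhelix + CHIR libraries, against 1.42, 1.14, 0.949, 0.892 and 0.912 CPM in WT + CHIR libraries. CSF3 (G-CSF) had 2.92, 3.40, 1.99, 2.54 and 2.64 CPM in dhelix + CHIR libraries, against 4.75, 6.35, 5.54, 5.46 and 4.96 CPM in WT + CHIR libraries. These colony-stimulating factors moved apart, CSF2 by 1.33 ± 0.17 (adjusted p = 1.6e-07) and CSF3 by -0.997 ± 0.12 (adjusted p = 1.6e-07) on the log2 scale, each without overlap between groups. IL23A, a subunit of interleukin 23, fell, with 10.1 ± 1.34 CPM with dhelix + CHIR and 18.5 ± 1.44 CPM with WT + CHIR (log2 fold change -0.87 ± 0.09, adjusted p = 1.5e-09). The inflammatory cytokine IL6 fell too (2.12 ± 0.445 CPM with dhelix + CHIR and 3.23 ± 0.101 CPM with WT + CHIR, log2 fold change -0.60 ± 0.14, adjusted p = 0.00074). TNFSF9, a TNF family ligand listed with the cytokines, rose (22.3 ± 1.45 CPM with dhelix + CHIR and 13.2 ± 1.07 CPM with WT + CHIR, log2 fold change 0.76 ± 0.079, adjusted p = 1.6e-09). Of 33 tested interferon-stimulated genes 15 rose and 3 fell, or 1 without WT + CHIR replicate 1 (median log2 fold change 0.28). The RNA sensor IFIH1 averaged 2.998 ± 0.426 CPM with dhelix + CHIR and 1.42 ± 0.287 CPM with WT + CHIR (log2 fold change 1.07 ± 0.19, adjusted p = 2.7e-05). OAS3, which senses double-stranded RNA, averaged 20.7 ± 1.03 CPM with dhelix + CHIR and 11.3 ± 1.296 CPM with WT + CHIR (log2 fold change 0.87 ± 0.076, adjusted p = 4.5e-11). PARP9 was another (log2 fold change 0.77 ± 0.083, adjusted p = 3.3e-09). SAMD9L, a growth-restraining protein, averaged 1.52 ± 0.28 CPM with dhelix + CHIR and 0.853 ± 0.296 CPM with WT + CHIR (log2 fold change 0.82 ± 0.23, adjusted p = 0.0053). The falls of the interferon list were IFIT2 (log2 fold change -1.45, adjusted p = 0.016), ISG20 (-0.42, adjusted p = 3.8e-06) and IRF1 (-0.17, adjusted p = 0.049). Its 15 members not called included ISG15, IFIT1, IFIT3, MX1 and OAS1.

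Clock genes were mostly lower, 10 of 19 tested, with 3 higher (1 without dhelix + CHIR replicate 4 or WT + CHIR replicate 2). NR1D1 (REV-ERBα), the repressor of BMAL1 transcription, had 46.0, 46.7, 44.1, 42.3 and 46.5 CPM in dhelix + CHIR libraries, against 102, 105, 108, 106 and 101 CPM in WT + CHIR libraries. No library of one group reached the other, and the log2 fold change was -1.21 ± 0.064 (adjusted p = 8.4e-17). BMAL1 itself, under the symbol ARNTL, was lower too (log2 fold change -0.29, adjusted p = 0.00011). PER1 averaged 53.2 ± 2.03 CPM with dhelix + CHIR and 83.3 ± 4.17 CPM with WT + CHIR (log2 fold change -0.65 ± 0.071, adjusted p = 7.9e-09). PER2 averaged 50.04 ± 2.16 CPM with dhelix + CHIR and 61.6 ± 2.54 CPM with WT + CHIR (log2 fold change -0.30 ± 0.04, adjusted p = 3.0e-07). The output factor DBP had 9.93 ± 0.884 CPM with dhelix + CHIR and 17.6 ± 1.14 CPM with WT + CHIR (log2 fold change -0.83 ± 0.08, adjusted p = 4.5e-10). The repressor BHLHE41 had 8.16 ± 0.838 CPM with dhelix + CHIR and 13.6 ± 0.839 CPM with WT + CHIR (log2 fold change -0.74 ± 0.065, adjusted p = 3.8e-11). Sampling times of day are not given in the labels.

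Histone genes were lower, 17 of 28 tested with 0 higher and a median log2 fold change of -0.60. HIST1H3D averaged 2.18 ± 0.37 CPM with dhelix + CHIR and 5.59 ± 0.509 CPM with WT + CHIR (log2 fold change -1.36 ± 0.11, adjusted p = 4.4e-12). HIST1H4I averaged 2.06 ± 0.12 CPM with dhelix + CHIR and 4.71 ± 0.63 CPM with WT + CHIR (log2 fold change -1.203 ± 0.13, adjusted p = 6.1e-09). HIST1H4E averaged 2.61 ± 0.407 CPM with dhelix + CHIR and 5.53 ± 0.39 CPM with WT + CHIR (log2 fold change -1.08 ± 0.11, adjusted p = 2.6e-09). HIST1H3H was close to the lower limit of detection (0.923 ± 0.242 CPM with dhelix + CHIR and 1.73 ± 0.351 CPM with WT + CHIR, log2 fold change -0.91 ± 0.20, adjusted p = 0.00050). Most histone transcripts lack a poly(A) tail, the libraries were made with an mRNA kit, and many histone genes are near-identical copies, so these values are uncertain.

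S-phase genes moved up, with 25 of 51 tested higher and 4 lower, but by little (median 0.11). The sliding clamp PCNA averaged 153 ± 6.81 CPM with dhelix + CHIR and 124 ± 1.53 CPM with WT + CHIR (log2 fold change 0.30 ± 0.041, adjusted p = 6.3e-07). The helicase subunit MCM6 averaged 93.1 ± 2.37 CPM with dhelix + CHIR and 73.4 ± 1.46 CPM with WT + CHIR (log2 fold change 0.34 ± 0.037, adjusted p = 3.7e-09). The activator E2F1 averaged 41.8 ± 0.9 CPM with dhelix + CHIR and 31.9 ± 1.64 CPM with WT + CHIR (log2 fold change 0.39 ± 0.063, adjusted p = 7.9e-06), and its relative E2F2 rose too (log2 fold change 0.46 ± 0.075, adjusted p = 1.1e-05). GINS2, a subunit of the replicative helicase, rose likewise (log2 fold change 0.40 ± 0.045, adjusted p = 7.7e-09). Of 42 tested mitotic genes 5 were higher (9 in a fit of the compared groups alone) and 5 lower, a share of calls (23.8%) below that of all genes, with topoisomerase TOP2A among the higher (log2 fold change 0.25 ± 0.051, adjusted p = 0.00020). CKS2, a cyclin-dependent kinase subunit, was higher too (log2 fold change 0.22 ± 0.032, adjusted p = 7.5e-07), while the kinase PLK1 (log2 fold change -0.24 ± 0.054, adjusted p = 0.00086) and the spindle protein HMMR (log2 fold change -0.23 ± 0.066, adjusted p = 0.0083) were lower.

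The cell-cycle inhibitor CDKN1C (p57) had 5.23, 5.75, 5.27, 5.13 and 5.91 CPM in dhelix + CHIR libraries, against 2.15, 1.99, 2.64, 3.12 and 3.25 CPM in WT + CHIR libraries. It was higher in every dhelix + CHIR library (log2 fold change 1.07 ± 0.12, adjusted p = 4.2e-09). MXD1, an antagonist of MYC, was lower (8.52 ± 0.713 CPM with dhelix + CHIR and 13.04 ± 0.403 CPM with WT + CHIR, log2 fold change -0.62 ± 0.082, adjusted p = 2.7e-07). The pocket proteins RBL2 (log2 fold change 0.29 ± 0.048, adjusted p = 1.2e-05) and RBL1 (log2 fold change 0.27 ± 0.059, adjusted p = 0.00044) were higher, in a list of MYC and G1 regulators with 5 higher and 7 lower of 24 tested (6 and 5 without dhelix + CHIR replicate 1, and 3 higher without dhelix + CHIR replicate 2). Of 31 tested p53 targets 6 rose (3 without dhelix + CHIR replicate 2 or 4 or WT + CHIR replicate 4) and 7 fell. That is a share of calls of 41.9%, beside 30.6% of all genes. PLK3, a polo-like kinase, was lower (log2 fold change -0.46 ± 0.065, adjusted p = 7.1e-07). The stress genes GADD45B (-0.38), SESN2 (-0.37) and GADD45A (-0.33) were lower on the log2 scale too.

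Matrix genes rose more often than they fell. Of 40 tested laminins, nidogens and matricellular genes 21 rose and 2 fell (median 0.30), and of 29 collagen chains 12 rose and 2 fell (median 0.18), or 1 without dhelix + CHIR replicate 4 or WT + CHIR replicate 5. Fibronectin, FN1, had 1581, 1111, 1283, 1533 and 1038 CPM in dhelix + CHIR libraries, against 886, 881, 812, 774 and 833 CPM in WT + CHIR libraries. SMOC1, a secreted modulator of BMP signalling, had 9.91, 9.38, 8.81, 8.88 and 8.50 CPM in dhelix + CHIR libraries, against 4.14, 3.84, 3.95, 4.79 and 5.02 CPM in WT + CHIR libraries. Neither gene's groups overlapped, with log2 fold changes of 0.65 ± 0.073 (adjusted p = 4.5e-08) and 1.08 ± 0.077 (adjusted p = 2.7e-13). COL6A1 averaged 525 ± 44.8 CPM with dhelix + CHIR and 314 ± 14.1 CPM with WT + CHIR (log2 fold change 0.74 ± 0.078, adjusted p = 9.7e-09). COL5A1 averaged 78.5 ± 6.37 CPM with dhelix + CHIR and 52.6 ± 3.35 CPM with WT + CHIR (log2 fold change 0.58 ± 0.088, adjusted p = 5.8e-06). COL18A1 averaged 14.0 ± 1.12 CPM with dhelix + CHIR and 8.32 ± 0.914 CPM with WT + CHIR (log2 fold change 0.75 ± 0.11, adjusted p = 1.3e-06). SPARC, a collagen-binding glycoprotein, averaged 716 ± 28.8 CPM with dhelix + CHIR and 546 ± 17.7 CPM with WT + CHIR (log2 fold change 0.39 ± 0.042, adjusted p = 3.5e-09). COL4A5 (log2 fold change 0.64 ± 0.11, adjusted p = 1.8e-05) and COL15A1 (log2 fold change 0.72 ± 0.20, adjusted p = 0.0058) rose at lower levels, and the COL15A1 groups overlapped. The proteoglycan LUM (log2 fold change 1.06 ± 0.17, adjusted p = 6.4e-06) and nidogen NID2 (log2 fold change 0.95 ± 0.16, adjusted p = 2.3e-05) rose too. Thrombospondin THBS1 rose as well (log2 fold change 0.42 ± 0.034, adjusted p = 4.6e-12). LTBP1, which stores latent TGF-β and stands in the TGF-β list, was also higher (log2 fold change 0.49 ± 0.044, adjusted p = 5.2e-11). CTGF, a YAP and TGF-β target, fell (67.9 ± 3.79 CPM with dhelix + CHIR and 92.6 ± 5.22 CPM with WT + CHIR, log2 fold change -0.45 ± 0.05, adjusted p = 8.1e-09).

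Proteases were split, with 10 of 27 tested metalloproteinase, inhibitor and related genes higher and 7 lower. The collagenases fell, MMP1 with 9.56, 7.74, 9.68, 10.8 and 8.78 CPM in dhelix + CHIR libraries, against 20.5, 13.9, 17.5, 16.7 and 14.5 CPM in WT + CHIR libraries. MMP13 averaged 1.304 ± 0.159 CPM with dhelix + CHIR and 2.53 ± 0.363 CPM with WT + CHIR (log2 fold change -0.95 ± 0.17, adjusted p = 3.8e-05), and the MMP1 groups did not overlap (log2 fold change -0.84 ± 0.10, adjusted p = 7.0e-08). The aggrecanase ADAMTS4 rose, with 2.25 ± 0.311 CPM with dhelix + CHIR and 0.929 ± 0.136 CPM with WT + CHIR (log2 fold change 1.27 ± 0.19, adjusted p = 2.1e-06). The membrane-bound MMP15 rose as well (12.7 ± 0.643 CPM with dhelix + CHIR and 7.61 ± 0.644 CPM with WT + CHIR, log2 fold change 0.73 ± 0.09, adjusted p = 5.2e-08).

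Among osteoblast genes 2 of 13 rose and 4 fell (4 and 3 with the FOXP2 level as a covariate). This is a share of calls of 46.2%, beside 30.6% of all genes. Alkaline phosphatase, ALPL, was lower (12.07 ± 0.77 CPM with dhelix + CHIR and 17.7 ± 1.88 CPM with WT + CHIR, log2 fold change -0.55 ± 0.10, adjusted p = 6.4e-05). TNFRSF11B (osteoprotegerin) was higher with overlap between groups (log2 fold change 0.26 ± 0.062, adjusted p = 0.0013) and did not pass in a fit of the compared groups alone (adjusted p = 0.066). The smooth muscle protein CNN1 fell (10.4 ± 0.688 CPM with dhelix + CHIR and 15.6 ± 1.89 CPM with WT + CHIR, log2 fold change -0.57 ± 0.10, adjusted p = 2.0e-05) in a list with 7 of 20 higher (4 with no filter on low counts) and 3 lower. Smoothelin, SMTN, a protein of the contractile cytoskeleton, fell (log2 fold change -0.31 ± 0.069, adjusted p = 0.00074). The cation channel TRPC6 (log2 fold change 0.65 ± 0.18, adjusted p = 0.0058) and the actin ACTA2 (log2 fold change 0.33 ± 0.091, adjusted p = 0.0047) rose with overlap between groups. The ACTA2 call was lost with no filter on low counts (adjusted p = 0.0505). Of TGF-β and BMP response genes 11 of 34 rose and 9 fell, a share of calls of 58.8%. The SMAD co-repressor SKI (log2 fold change 0.50 ± 0.059, adjusted p = 3.0e-08) and ID4 (log2 fold change 0.47 ± 0.12, adjusted p = 0.0025) were higher. Of Notch and Hedgehog genes 3 of 18 rose and 3 fell (33.3%), near the 30.6% of all genes. HEY1, a Notch and BMP target, was lower (log2 fold change -0.46 ± 0.086, adjusted p = 6.6e-05) and the Hedgehog effector GLI2 was higher (log2 fold change 0.33 ± 0.065, adjusted p = 0.00013).

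Genes of axon guidance rose in 22 of 59 tested members and fell in 6. The plexin PLXNC1 averaged 8.57 ± 1.61 CPM with dhelix + CHIR and 4.75 ± 0.36 CPM with WT + CHIR (log2 fold change 0.85 ± 0.10, adjusted p = 2.9e-08). The co-receptor NRP2 averaged 2.38 ± 0.576 CPM with dhelix + CHIR and 1.35 ± 0.18 CPM with WT + CHIR (log2 fold change 0.83 ± 0.16, adjusted p = 9.5e-05). The semaphorin SEMA6A averaged 14.4 ± 3.33 CPM with dhelix + CHIR and 9.50 ± 0.533 CPM with WT + CHIR (log2 fold change 0.60 ± 0.10, adjusted p = 1.1e-05).

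Markers of other cell types rose in part. The endothelial clotting factor VWF had 38.7, 46.9, 40.7, 39.1 and 40.7 CPM in dhelix + CHIR libraries, against 15.9, 25.03, 20.2, 21.2 and 17.8 CPM in WT + CHIR libraries. The groups did not overlap (log2 fold change 1.04 ± 0.091, adjusted p = 5.0e-11). In the wider endothelial list 3 of 11 tested genes rose with 0 lower, and 8 were not called. Its share of calls (27.3%) is below the 30.6% of all genes. CHGA, a protein of secretory granules in neuroendocrine cells, averaged 14.5 ± 0.88 CPM with dhelix + CHIR and 5.53 ± 1.28 CPM with WT + CHIR (log2 fold change 1.39 ± 0.12, adjusted p = 6.6e-11). MAP2, a dendritic microtubule protein, averaged 3.61 ± 0.713 CPM with dhelix + CHIR and 2.06 ± 0.325 CPM with WT + CHIR (log2 fold change 0.82 ± 0.15, adjusted p = 5.0e-05). Of 20 tested genes of the wider neuronal list 10 rose and 2 fell. The 8 not called included SYP, RBFOX3, NCAM1 and STMN2. The falls were SYN1 (log2 fold change -0.37, adjusted p = 0.029) and CHGB (-0.29, adjusted p = 0.026). Of the falls 0 were left without dhelix + CHIR replicate 1 or WT + CHIR replicate 2, and 1 without dhelix + CHIR replicate 3 or WT + CHIR replicate 5. The tubulin TUBB3 was also higher, with 24.5 ± 1.79 CPM with dhelix + CHIR and 17.2 ± 1.62 CPM with WT + CHIR (log2 fold change 0.50 ± 0.073, adjusted p = 1.3e-06). The glutamate transporter SLC17A7 rose too (log2 fold change 0.38 ± 0.085, adjusted p = 0.00064).

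In the wider blood cell list 5 of 11 tested genes rose and 1 fell. The T-cell receptor chain CD3D averaged 3.67 ± 0.337 CPM with dhelix + CHIR and 2.19 ± 0.397 CPM with WT + CHIR (log2 fold change 0.74 ± 0.14, adjusted p = 5.8e-05). The protease GZMB averaged 85.4 ± 8.61 CPM with dhelix + CHIR and 52.8 ± 2.19 CPM with WT + CHIR (log2 fold change 0.69 ± 0.076, adjusted p = 8.4e-09). The co-receptor CD8A rose with overlap between groups (log2 fold change 0.55 ± 0.16, adjusted p = 0.0074). The integrin ITGAM was lower, with 9.25 ± 0.922 CPM with dhelix + CHIR and 16.5 ± 0.599 CPM with WT + CHIR (log2 fold change -0.84 ± 0.079, adjusted p = 2.0e-10). PTPRC, the general leukocyte marker, averaged 0.193 CPM in dhelix + CHIR and 0.374 CPM in WT + CHIR libraries. Of 23 epithelial markers 6 rose and 3 fell, a share of calls of 39.1% beside 30.6% of all genes. The desmosomal cadherin DSC2 was higher (log2 fold change 0.50 ± 0.086, adjusted p = 1.7e-05) and KRT7 lower (log2 fold change -0.67 ± 0.17, adjusted p = 0.0022). The keratins KRT16 (log2 fold change 0.68 ± 0.20, adjusted p = 0.0093) and KRT15 (log2 fold change -0.44 ± 0.077, adjusted p = 3.0e-05) moved in opposite directions.

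INSIG1, the sterol-regulated anchor that holds SREBP in the endoplasmic reticulum, had 113, 135, 126, 123 and 139 CPM in dhelix + CHIR libraries, against 56.6, 66.6, 60.2, 63.6 and 63.9 CPM in WT + CHIR libraries. The libraries were separate (log2 fold change 1.03 ± 0.05, adjusted p = 1.4e-17). In its list of sterol and fatty acid synthesis genes 10 of 31 rose (6 with no filter on low counts) and 1 fell (2 without dhelix + CHIR replicate 3 or 4), with a median log2 fold change of 0.077, beside 0.014 for all genes. The list's share of calls (35.5%) is near the 30.6% of all genes. ACSS2, an acetyl-CoA synthetase, was next (log2 fold change 0.50 ± 0.073, adjusted p = 1.6e-06). The desaturases FADS2 (log2 fold change 0.35 ± 0.069, adjusted p = 0.00017) and FADS1 (log2 fold change 0.30 ± 0.043, adjusted p = 6.6e-07) followed.

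Of glycolysis and hypoxia genes 13 of 36 rose and 4 fell, a share of calls of 47.2% beside 30.6% of all genes. Carbonic anhydrase CA12 (log2 fold change 0.54 ± 0.073, adjusted p = 3.7e-07) and the lactate transporter SLC16A3 (log2 fold change 0.40 ± 0.081, adjusted p = 0.00017) were higher. The oxygen sensor EGLN3 (log2 fold change 0.58 ± 0.13, adjusted p = 0.00064) and the aldolase ALDOC (log2 fold change 0.52 ± 0.10, adjusted p = 0.00012) rose with them. Of lysosome and autophagy genes 15 of 39 rose and 8 fell, with the protease CTSS higher (log2 fold change 1.03 ± 0.14, adjusted p = 2.6e-07). The proteases CTSB (log2 fold change 0.42 ± 0.042, adjusted p = 9.7e-10) and CTSZ (log2 fold change 0.40 ± 0.036, adjusted p = 5.2e-11) and the sterol carrier NPC2 (log2 fold change 0.43 ± 0.049, adjusted p = 1.5e-08) rose as well. Cytosolic ribosomal protein genes rose in 33 of 83 tested (15 with no filter on low counts) and fell in 3, by small amounts such as 0.20 ± 0.03 for RPS3 (adjusted p = 2.6e-06) and 0.21 ± 0.051 for RPL39 (adjusted p = 0.0017) on the log2 scale. RPS3A rose by 0.19 ± 0.045 (adjusted p = 0.0011), and RPL3L, a muscle paralog, fell (1.10 ± 0.154 CPM with dhelix + CHIR and 1.74 ± 0.287 CPM with WT + CHIR, log2 fold change -0.66 ± 0.19, adjusted p = 0.0058). The count of ribosomal genes that rose was 15 when no filter on low counts was used.

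**Figure D3:**
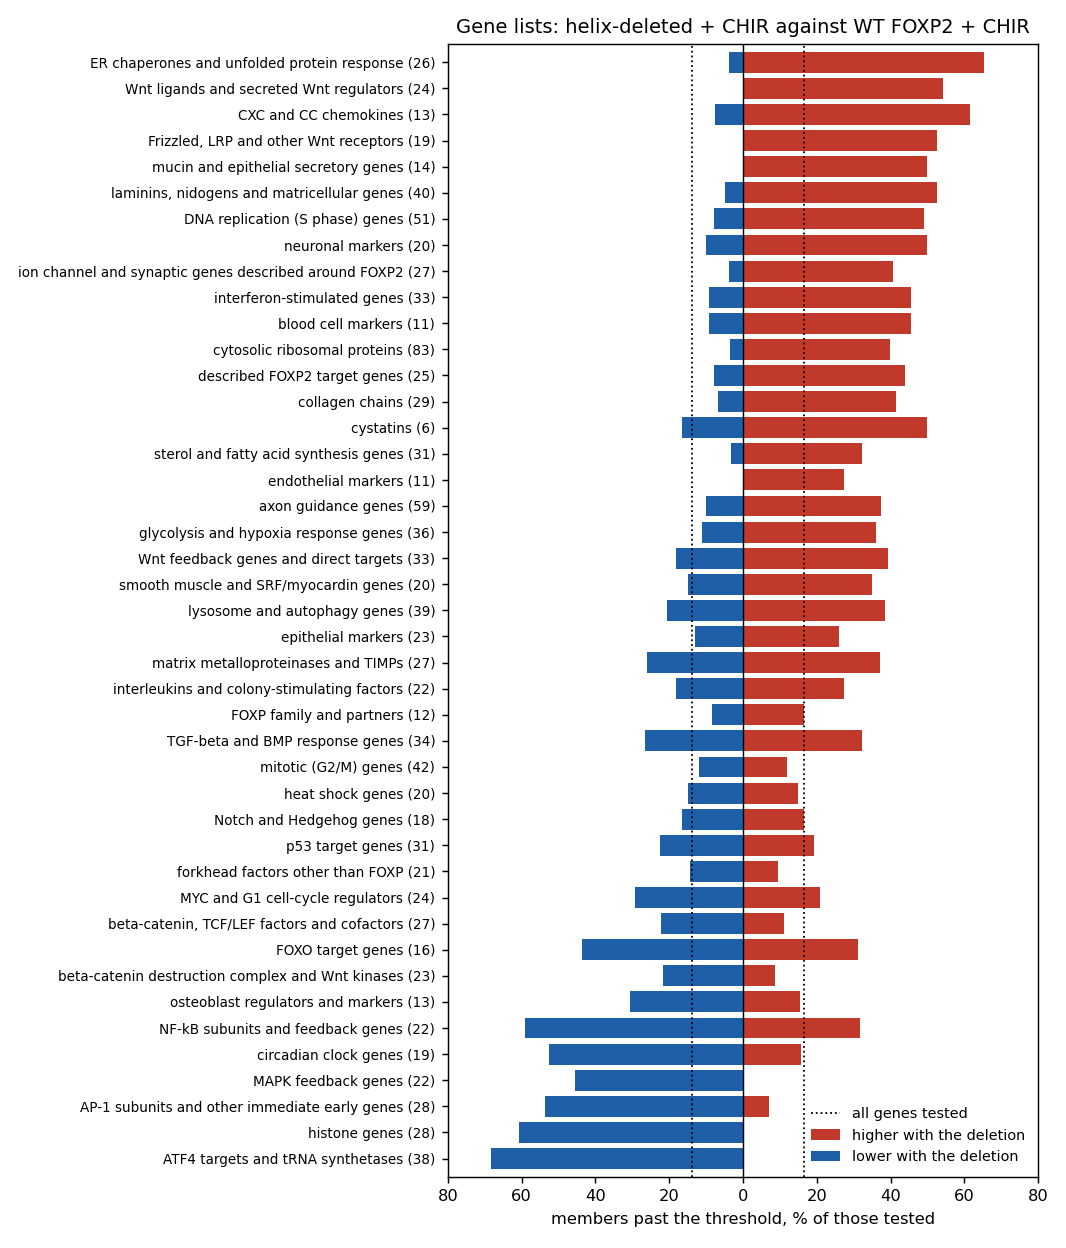
Members past the threshold in each gene list, as a percentage of the members tested (numbers in brackets), with rises in dhelix + CHIR against WT + CHIR to the right and falls to the left, and dotted lines at 16.6% and 13.9% for all genes. Rises exceed falls most for the ER chaperone and unfolded protein response genes (17 against 1) and falls exceed rises most for the ATF4 targets (26 against 0).

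Of the members named in these groups, 9 had calls that rested on 1 or more libraries, and they are given here with the libraries whose removal ended the call. In the Wnt pathway the junction protein JUP (plakoglobin), a relative of β-catenin, was higher (log2 fold change 0.36 ± 0.11, adjusted p = 0.016) but not without dhelix + CHIR replicate 1 (adjusted p = 0.056). APC2, a relative of APC, was lower (log2 fold change -0.43 ± 0.14, adjusted p = 0.016) but not without dhelix + CHIR replicate 1 (adjusted p = 0.0504), dhelix + CHIR replicate 4 (adjusted p = 0.051) or WT + CHIR replicate 4 (adjusted p = 0.056). DVL2, a Dishevelled protein that relays the receptor signal, was lower (log2 fold change -0.18 ± 0.063, adjusted p = 0.024) but not without dhelix + CHIR replicate 4 (adjusted p = 0.088) or WT + CHIR replicate 5 (adjusted p = 0.070). The Notch ligand JAG2 was higher (log2 fold change 0.43 ± 0.14, adjusted p = 0.021) but not without dhelix + CHIR replicate 2 (adjusted p = 0.088), dhelix + CHIR replicate 3 (adjusted p = 0.050), WT + CHIR replicate 1 (adjusted p = 0.073) or WT + CHIR replicate 2 (adjusted p = 0.053). The synaptic adhesion protein NLGN1 was higher (log2 fold change 0.47 ± 0.15, adjusted p = 0.014) but not without dhelix + CHIR replicate 3 (adjusted p = 0.062) or WT + CHIR replicate 5 (adjusted p = 0.073). The chemokine CXCL14 was higher (log2 fold change 0.41 ± 0.14, adjusted p = 0.022) but not without dhelix + CHIR replicate 2 (adjusted p = 0.11) or WT + CHIR replicate 3 (adjusted p = 0.069). TNIP3, a partner of A20, was higher (log2 fold change 0.48 ± 0.15, adjusted p = 0.024) but not without dhelix + CHIR replicate 2 (adjusted p = 0.065), dhelix + CHIR replicate 5 (adjusted p = 0.054) or WT + CHIR replicate 1 (adjusted p = 0.072). For the secreted cystatin CST3 (log2 fold change 0.17 ± 0.065, adjusted p = 0.041) the call was lost without dhelix + CHIR replicate 1 (adjusted p = 0.11), dhelix + CHIR replicate 2 (adjusted p = 0.10), dhelix + CHIR replicate 5 (adjusted p = 0.057), WT + CHIR replicate 1 (adjusted p = 0.15), WT + CHIR replicate 3 (adjusted p = 0.079), WT + CHIR replicate 4 (adjusted p = 0.065) or WT + CHIR replicate 5 (adjusted p = 0.062). For the bone matrix protein SPP1, osteopontin (log2 fold change -0.26 ± 0.10, adjusted p = 0.046), it was lost without dhelix + CHIR replicate 2 (adjusted p = 0.092), dhelix + CHIR replicate 3 (adjusted p = 0.094), dhelix + CHIR replicate 4 (adjusted p = 0.088), dhelix + CHIR replicate 5 (adjusted p = 0.062), WT + CHIR replicate 1 (adjusted p = 0.082), WT + CHIR replicate 2 (adjusted p = 0.065) or WT + CHIR replicate 3 (adjusted p = 0.20). These calls lay close to the threshold.

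The lists were then set beside the difference between WT and mock without CHIR, in libraries that the comparison did not use. Between WT and mock 15083 genes differed (81.6%), 7384 of them higher with WT (39.9%). The labels give a plasmid amount for WT but none for mock. An effect of the plasmid and one of FOXP2 therefore cannot be told apart here. Of the 2479 genes that rose at least 2-fold with WT FOXP2, 863 were lower (34.8%) and 224 higher (9.04%) in dhelix + CHIR than in WT + CHIR, with a median log2 fold change of −0.12. Of the 3553 that fell at least 2-fold, 1086 were higher (30.6%) and 105 lower (2.96%), with a median of 0.22. The genes not called between WT and mock had 361 higher (10.6%) and 301 lower (8.85%) of 3402. EGR4 and NEURL3 are examples of the first kind, with 11.71 and 12.2 CPM in WT libraries and 0.0474 and 0.0496 CPM in mock libraries. SMOC1 and COL5A1 are examples of the second, with 8.65 and 41.1 CPM in WT libraries and 108 and 348 CPM in mock libraries. The mucins and MAL did not follow this order: MUC5AC had 5.14 CPM in WT and 0.0474 CPM in mock libraries. It was thus higher in WT than in mock, and it was higher still with the deletion. On average the dhelix + CHIR libraries also held less FOXP2 transcript, and its part in these classes was not tested.

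**Figure D4:**
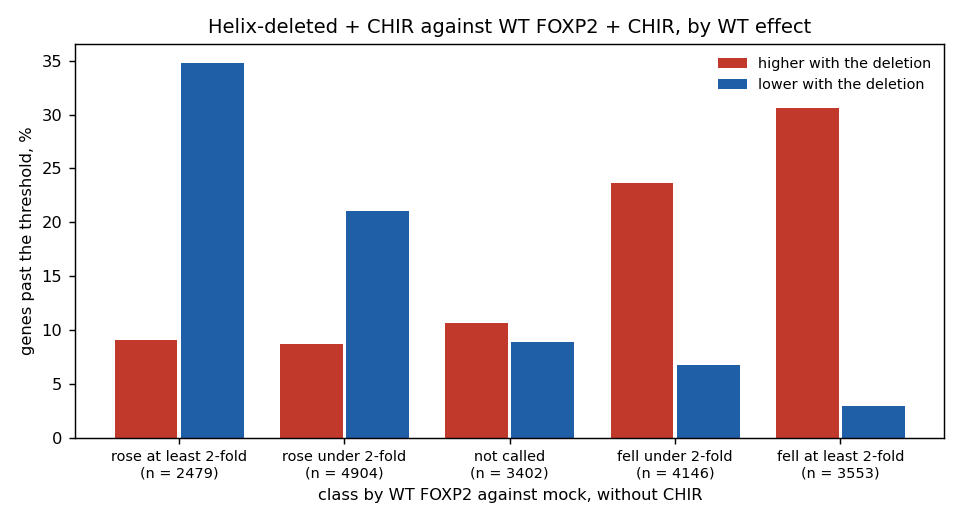
Percentage of genes higher and lower in dhelix + CHIR than in WT + CHIR, for 5 classes of genes by the difference between WT FOXP2 and mock without CHIR. Lower genes make up 34.8% of those at least 2-fold higher in WT than in mock. Higher genes make up 30.6% of those at least 2-fold lower in WT than in mock.

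Without CHIR, in 10 other libraries, 6588 genes (35.6%) differed between the constructs, 3123 higher (16.9%) and 3465 lower (18.7%) in dhelix than in WT. With no filter on low counts this split turned round, with 3862 higher and 2274 lower. Calls of at least 1.5-fold made up 6.72% of the genes, and calls at least 2-fold higher 1.87%. The comparisons shared 1385 genes higher in both and 1427 lower in both, which make up 49.7% of the calls with CHIR and 42.7% of those without, and 227 genes were called in opposite directions. Across genes, which are not independent replicates, the log2 fold changes had a Pearson r of 0.48 over all 18485 genes and 0.56 over the 14923 with a mean of at least 1 CPM. IRGM had 1.55, 1.65, 1.60, 1.66 and 1.58 CPM in dhelix libraries, against 5.72, 6.98, 6.32, 7.27 and 7.27 CPM in WT libraries. NR1D1 had 42.6, 42.2, 43.5, 41.7 and 40.5 CPM in dhelix libraries, against 76.6, 89.2, 90.4, 90.4 and 88.5 CPM in WT libraries. DDIT3 had 52.5, 58.1, 55.5, 55.4 and 55.0 CPM in dhelix libraries, against 89.9, 106, 103, 107 and 101 CPM in WT libraries. Each of these was separated between constructs without CHIR as it was with CHIR, with log2 fold changes without CHIR of -2.07 (adjusted p = 2.7e-16), -1.05 (adjusted p = 1.5e-15) and -0.88 (adjusted p = 1.7e-17). The sulfotransferase CHST8 rose by 1.55 with and 1.56 without CHIR, and SLC22A20, a member of the organic anion transporter family, by 1.45 and 2.22. The ciliary dynein DNAH3 (-1.35 with and -2.24 without CHIR) and RP11-189B4.6 (-1.32 and -1.25) fell in both.

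Whether the difference between constructs itself differed with CHIR was tested as an interaction, the log2 fold change with CHIR minus that without. FOXP2 stood at 11903 to 16321 CPM in the dhelix and WT libraries with CHIR and at 4655 to 7806 CPM in those without. CHIR and the FOXP2 level therefore cannot be told apart in this interaction. A total of 2627 genes passed (14.2%), 1650 with a more positive (8.93%) and 977 with a more negative (5.29%) change under CHIR. This split is not stable: it was 659 and 1510 with no filter on low counts and 2259 and 2032 in a fit of the 4 groups alone, and leaving out WT + CHIR replicate 2, dhelix replicate 4, WT replicate 2 or WT replicate 5 lowered the 1650 to 1099, 1090, 1077 and 1021. Genes of the NF-κB and chemokine groups were among those with a more positive change. IL8 had 43.9, 52.96, 44.5, 41.6 and 46.1 CPM in dhelix libraries, against 82.1, 88.9, 80.4, 98.5 and 87.6 CPM in WT libraries. Its log2 fold change was 0.21 with CHIR and -0.94 without CHIR (interaction 1.15 ± 0.092, adjusted p = 8.1e-11). BIRC3 (0.81 with and -0.42 without CHIR, interaction 1.24 ± 0.11, adjusted p = 1.1e-09) and TRAF1 (0.48 and -0.60, interaction 1.08 ± 0.074, adjusted p = 1.1e-12) changed sign likewise.

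THBS1, a thrombospondin, had 859, 804, 843, 856 and 839.7 CPM in dhelix libraries, against 1112, 1086, 1120.0, 1073 and 1114 CPM in WT libraries. It was higher with the deletion with CHIR (0.42) and lower without CHIR (-0.39), an interaction of 0.81 ± 0.047, adjusted p = 1.1e-14. The cell junction protein HEG1 (0.25 with and -0.30 without CHIR) and the glycosyltransferase MGAT5 (0.45 and -0.13) reversed in the same way, and so did the kinase subunit PIK3CG (0.74 and -0.55) and the keratin KRT75 (0.52 and -0.55). For the dynein heavy chain DYNC1H1 the deletion gave -0.041 with CHIR (adjusted p = 0.27) and -0.50 without CHIR (adjusted p = 7.0e-17), and for the secreted glycoprotein FSTL1 0.54 with (adjusted p = 5.3e-15) and 0.031 without CHIR (adjusted p = 0.48). CTNNB1 itself belonged here: it did not pass with CHIR and was lower with the deletion without CHIR (-0.27 ± 0.028, adjusted p = 7.4e-10), with an interaction of 0.24 ± 0.04, adjusted p = 4.1e-05.

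Of the genes called in opposite directions with and without CHIR, 4 had calls that rested on 1 or more libraries as well. TMEM71, a membrane protein, gave 0.71 with and -0.73 without CHIR on the log2 scale, and the call with CHIR was lost without dhelix + CHIR replicate 4 (adjusted p = 0.066). KLHDC1, a kelch-domain protein, gave -0.60 and 0.58, and the call with CHIR was lost without WT + CHIR replicate 2 (adjusted p = 0.073). FLRT3, an adhesion protein, gave 0.58 and -0.54, and the call with CHIR was lost without dhelix + CHIR replicate 1 (adjusted p = 0.10), dhelix + CHIR replicate 4 (adjusted p = 0.14), WT + CHIR replicate 4 (adjusted p = 0.084) or WT + CHIR replicate 5 (adjusted p = 0.063). RP11-290D2.6 gave -0.62 and 1.01, and the call with CHIR was lost without dhelix + CHIR replicate 1 (adjusted p = 0.080), dhelix + CHIR replicate 4 (adjusted p = 0.093), dhelix + CHIR replicate 5 (adjusted p = 0.099), WT + CHIR replicate 1 (adjusted p = 0.12), WT + CHIR replicate 2 (adjusted p = 0.15) or WT + CHIR replicate 3 (adjusted p = 0.083).

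Genes with a more negative change under CHIR included genes that rose with the deletion in both comparisons. MUC5AC had 34.6, 46.2, 41.8, 38.02 and 40.3 CPM in dhelix libraries, against 3.75, 5.14, 5.38, 6.50 and 4.95 CPM in WT libraries. MAL had 31.4, 38.6, 38.2, 32.5 and 37.0 CPM in dhelix libraries, against 4.06, 6.48, 4.88, 5.55 and 4.46 CPM in WT libraries. Both rose less with CHIR than without it, where the log2 fold changes were 2.95 and 2.80, with interactions of -1.44 ± 0.13, adjusted p = 1.1e-09 for MUC5AC and -1.29 ± 0.12, adjusted p = 8.4e-10 for MAL. With either construct the mean levels of both genes were higher with CHIR than without it. MLC1 (interaction -1.03 ± 0.085, adjusted p = 1.5e-10) and the calcium-binding protein SRL (-1.504 ± 0.15, adjusted p = 4.5e-09) shared this order. So did the hair-cell myosin MYO7A (-1.07 ± 0.11, adjusted p = 7.9e-09), TMEM117 (-1.08 ± 0.11, adjusted p = 2.8e-08) and C19orf77 (-1.54 ± 0.16, adjusted p = 1.0e-08). All 5 were higher with the deletion both with and without CHIR. The clock output DBP differed in sign, with -0.83 with and 0.31 without CHIR (interaction -1.13 ± 0.12, adjusted p = 2.7e-08).

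**Figure D5:**
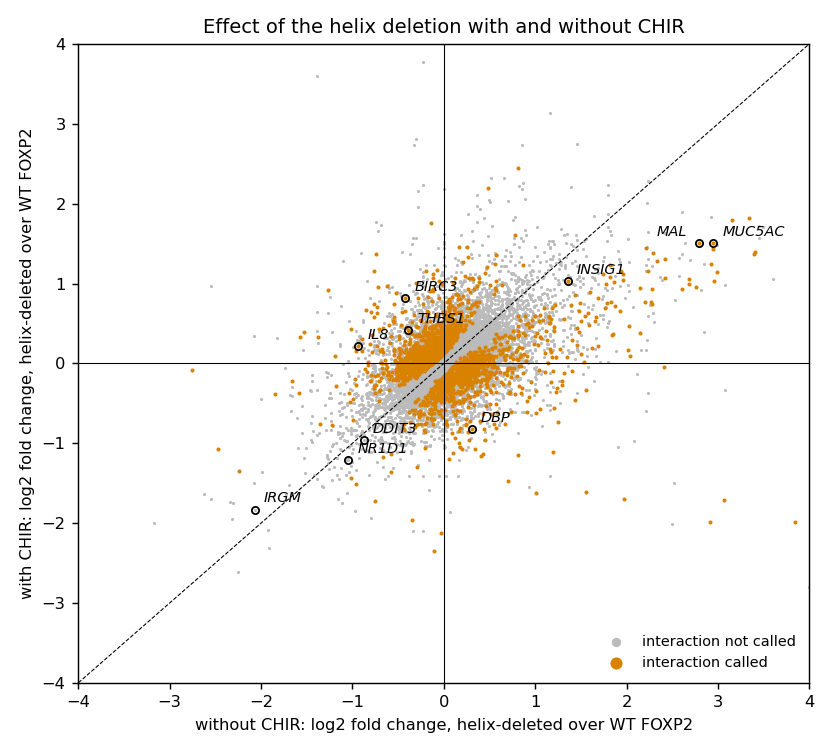
Log2 fold change of helix-deleted over WT FOXP2 with CHIR (vertical axis) against that without CHIR (horizontal axis) for each gene, with genes whose interaction passed in orange and the dashed line at equal values. IRGM, NR1D1 and DDIT3 lie near the line, MUC5AC and MAL lie below it at the right, and IL8, BIRC3 and THBS1 lie above the horizontal axis at the left; 4 genes lie outside the axes.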

How the data were processed

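RNA of U2OS cells was sequenced in 6 groups of 5 biological replicates. The deposited unit is the raw count per gene, 57373 genes in 30 libraries. Per the submitters' processing notes the authors used STAR 2.6.1a, featureCounts, Subread, DESeq2 and the hg19 build. The sources used here give neither the annotation, the strand handling nor the counted unit (read or fragment), so antisense, overlapping and near-identical genes (histones, ribosomal proteins, mucins) are uncertain. The only coordinates given are those of the promoter windows, which are of GRCh38.p14, another build than the hg19 of the authors' processing.

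The members, lists and tests were chosen with earlier results of these data known, and the ribosomal list was narrowed by symbol after values were seen. Genes passing edgeR's default expression filter (18485, with 99.9% of counts) were fitted in all 30 libraries together, with TMM scaling and edgeR's quasi-likelihood test (edgeR 4.0.16, limma 3.58.1, R 4.3.3). P-values were adjusted by Benjamini-Hochberg over all genes, at a threshold of 0.05. The biological coefficient of variation was 5.62%, and replicates differed by more than sampling noise (lowest chi-square per gene 1.39). On data simulated for dhelix + CHIR against WT + CHIR with 18312 genes, the test recovered 54% of 1.2-fold, 86% of 1.5-fold and 100% of 2-fold and 4-fold changes, with 4 calls among 18112 unchanged genes. The simulation used the fitted dispersions and changed 50 genes per fold, all with a mean of at least 1 CPM. Far fewer genes changed in it than were called here, so its rates need not hold for the real comparison.

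Named genes were FOXP2, CTNNB1, AXIN2, LEF1 and TCF7, the 12 largest non-overlapping changes in each direction, up to 4 called members of each list, the 8 smallest p in each direction of the interaction, the 8 largest changes per direction shared with the comparison without CHIR, and the 6 largest in opposite directions. The first 5 are named at any level, the others with a mean of at least 1 CPM. One gene that this rule names is not reported here. Genes with motif windows were chosen after values were seen, by the smallest p among those with a match. Alternatives were DESeq2 (1.42.0), its size factors, a floor of 1 CPM on the mean, no filter, a replicate block, FOXP2 left out of library sizes or as a covariate, the compared groups alone, a test against a 1.5-fold change, each library left out in turn, and leaving out CHIR replicate 1, dhelix replicate 5 and WT + CHIR replicate 4. Intervals and p-values cover the spread between these libraries of 1 cell line.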

Additional observations from a re-analysis of the deposited data

Results flagged for a closer look

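A library far from the other 4 of its group was found in 22 of the 474 groups examined, for 237 genes in dhelix + CHIR and in WT + CHIR, and chance flags about 1 in 20 groups. dhelix + CHIR replicate 5 was the library concerned 5 times. One library stood above its group for NEURL3 with 12.3 CPM in dhelix + CHIR replicate 2 and 10.2 to 10.8 CPM in the other 4, TRAF1 with 91.3 CPM in dhelix + CHIR replicate 5 and 79.7 to 82.5 CPM in the other 4 and TLE2 with 13.1 CPM in dhelix + CHIR replicate 1 and 11.5 to 11.9 CPM in the other 4. High single libraries were also seen for VWF with 46.9 CPM in dhelix + CHIR replicate 2 and 38.7 to 40.7 CPM in the other 4, MAP2 with 4.85 CPM in dhelix + CHIR replicate 4 and 3.05 to 3.47 CPM in the other 4 and ADAMTS4 with 1.16 CPM in WT + CHIR replicate 3 and 0.798 to 0.901 CPM in the other 4. The same held for BAG3 with 102 CPM in dhelix + CHIR replicate 5 and 94.6 to 95.1 CPM in the other 4, PLK3 with 36.3 CPM in WT + CHIR replicate 3 and 30.6 to 31.8 CPM in the other 4 and ACSS2 with 8.17 CPM in WT + CHIR replicate 3 and 7.24 to 7.49 CPM in the other 4. Others that stood high were ZNF117 with 4.599 CPM in WT + CHIR replicate 2 and 2.68 to 3.22 CPM in the other 4, CTGF with 74.6 CPM in dhelix + CHIR replicate 5 and 65.5 to 67.5 CPM in the other 4 and IL6 with 3.41 CPM in WT + CHIR replicate 1 and 3.16 to 3.23 CPM in the other 4. The remaining one was SESN2 with 119 CPM in dhelix + CHIR replicate 2 and 107 to 111 CPM in the other 4. One library stood below its group for RP11-206M11.7 with 1.43 CPM in WT + CHIR replicate 5 and 2.62 to 2.72 CPM in the other 4, TMEM117 with 6.16 CPM in dhelix + CHIR replicate 2 and 7.37 to 7.57 CPM in the other 4 and WNT7B with 5.83 CPM in WT + CHIR replicate 2 and 7.24 to 7.49 CPM in the other 4. Low single libraries were also seen for WNT6 with 3.17 CPM in WT + CHIR replicate 1 and 6.07 to 7.06 CPM in the other 4, SYK with 13.1 CPM in dhelix + CHIR replicate 5 and 16.8 to 17.4 CPM in the other 4 and MCM6 with 89.1 CPM in dhelix + CHIR replicate 5 and 93.3 to 94.9 CPM in the other 4. Below the rest were also ARRDC4 with 30.7 CPM in WT + CHIR replicate 5 and 34.1 to 35.4 CPM in the other 4, KSR2 with 16.4 CPM in dhelix + CHIR replicate 3 and 17.3 to 17.6 CPM in the other 4 and TNFSF9 with 11.4 CPM in WT + CHIR replicate 1 and 13.3 to 14.0 CPM in the other 4. 

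The effect of the deletion with CHIR differed from that without CHIR, by the interaction term at an adjusted p under 0.05, for 83 of the 237 genes named. Over all 18485 genes the share was 14.2%, and some of the named genes were chosen by the interaction or by opposite directions, so their count is not read against it. Values are log2 fold changes with CHIR minus those without, and no cause was tested. The change was more positive with CHIR for 56 genes. Among them were TMEM71 (1.45), PIK3CG (1.29), BIRC3 (1.24), IL8 (1.15), FLRT3 (1.12), SAMD9L (1.10), TRAF1 (1.08), CTSS (1.08), CSF2 (1.07), KRT75 (1.06), TNIP3 (0.95), FZD8 (0.92), DNAH3 (0.89) and MAP2 (0.87). Smaller differences were found for TRPC6 (0.83), FN1 (0.82), THBS1 (0.81), IFIH1 (0.79), SEMA6A (0.78), SMOC1 (0.77), DISC1 (0.74), LUM (0.73), OAS3 (0.73), CDKN1C (0.68), PLXNC1 (0.63), MGAT5 (0.58), SKI (0.58) and LGR4 (0.57). The list went on with GPR161 (0.56), HEG1 (0.55), FSTL1 (0.51), LAMA4 (0.50), NFIB (0.49), FOXN3 (0.48), WNT5A (0.46), COL4A5 (0.46), DYNC1H1 (0.46), EPHB3 (0.45), EPHA4 (0.45), TNFSF9 (0.41), PARP9 (0.39) and DNAJC3 (0.36). Further down came KSR2 (0.35), LTBP1 (0.33), MCM6 (0.33), CREB3L2 (0.32), FZD7 (0.32), DUSP5 (0.32), TNFRSF11B (0.30), GLI2 (0.29), E2F2 (0.29), GINS2 (0.25), CTNNB1 (0.24), DNAJB1 (0.24), CTSB (0.23) and CHD4 (0.17). The change was more negative with CHIR for 27 genes. Among them were RP11-290D2.6 (-1.63), C19orf77 (-1.54), MUC5B (-1.52), SRL (-1.504), MUC5AC (-1.44), AC114730.3 (-1.37) and MAL (-1.29). Smaller differences were found for HIST1H4I (-1.26), KLHDC1 (-1.18), DBP (-1.13), SYK (-1.11), TMEM117 (-1.08), MYO7A (-1.07) and MLC1 (-1.03). The list went on with VWF (-0.92), HIST1H3D (-0.77), SLC22A20 (-0.77), CD3D (-0.66), ARL14 (-0.55), BHLHE41 (-0.55) and KLF15 (-0.51). Further down came ID4 (-0.50), NEURL3 (-0.41), MMP1 (-0.40), INSIG1 (-0.33), HSPB8 (-0.32) and SLC3A2 (-0.24).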

How the results depend on the processing

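The counts for dhelix + CHIR against WT + CHIR kept within 1.5 times of 3077 higher and 2578 lower genes under every alternative run except the test against a 1.5-fold change: DESeq2 gave 2877 and 2743, and DESeq2 size factors 2889 and 2745. The replicate numbers do not pair the samples: same-numbered libraries of the groups had correlations of −0.0095 to 0.049 between their deviations, 1 of 5 libraries correlated best with its own number, and a fit with the replicate number as a block gave 3123 higher and 2610 lower genes. With no filter on low counts the deletion without CHIR raised 3862 and lowered 2274 genes, against 3123 and 3465 with the filter, the interaction gave 659 higher and 1510 lower, against 1650 and 977, and with CHIR the counts were 2499 and 2641. A fit of the compared groups alone gave 2032 genes lower in the interaction, leaving out the libraries that stand apart 1883, and the FOXP2 level as a covariate 1855, with 2016 higher and 2301 lower without CHIR. The cause was not tested. Against a 1.5-fold change, which asks for a larger effect, 147 genes were higher and 72 lower with CHIR, 193 and 67 without CHIR, 6 and 14 in the interaction and 3662 and 4400 in WT against mock. The same test left 76 higher and 4 lower of the genes that fell at least 2-fold with WT, 34 and 61 of those that rose, and 54 higher and 33 lower in both. Leaving out each library in turn gave 2594 to 2859 higher and 2283 to 2585 lower genes with CHIR, 2772 to 3213 and 2866 to 3166 without CHIR, 1021 to 1594 and 804 to 1124 in the interaction and 7307 to 7482 and 7365 to 7674 in WT against mock. It gave 965 to 1066 higher and 87 to 102 lower of the genes that fell with WT, 184 to 219 and 780 to 862 of those that rose, and −0.21 to −0.14 for the log2 FOXP2 level. FOXP2 passed in the fit across genes with no filter (−0.20, adjusted p = 4.9e-06) and with the compared groups alone (−0.19, adjusted p = 0.019). TCF7 gave −0.088 without dhelix + CHIR replicate 5 and 0.52 without WT + CHIR replicate 2. Of 237 named genes, the call was lost for 7 with no filter, 7 with the FOXP2 covariate, 3 with the compared groups alone, 1 each with DESeq2, the block and the libraries left out, and 175 were not past 1.5-fold. Genes under about 1 CPM rest on few counts, and differences there may not be detectable at this depth.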
